A study of Mus musculus with 2 samples.

Results

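The 30 genes described here make cholesterol, control its synthesis or handle its product. They are a list of names, set by no threshold on a measured value but drawn up with earlier results of these data known, and make up 30 of 21938 protein-coding genes on the assembled chromosomes. There are 5 genes of the thiolase and mevalonate steps, 3 of the isoprenoid steps to squalene and 10 of the sterol ring steps. A further 5 encode the sterol regulatory element-binding proteins (SREBPs) and their regulators, 3 act in sterol transport and esterification and 4 in fatty acid synthesis. Lipoprotein receptors for cholesterol uptake were not analysed here.

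Animal cells build cholesterol from acetyl-CoA through mevalonate, farnesyl diphosphate, squalene and lanosterol. When membranes of the endoplasmic reticulum run low in sterol, the escort protein Scap carries SREBP to the Golgi, where it is cut. The released fragment enters the nucleus and activates synthesis genes through sterol response elements, often beside sites for NF-Y and Sp1. When sterol is plentiful, Insig proteins hold Scap and SREBP back. Macrophages take up much cholesterol with lipoproteins and dying cells, and store the excess as esters.

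The mark measured was trimethylation of histone H3 at lysine 4 (H3K4me3), which is found around the starts of active and poised genes and is not itself a measure of transcription. Chromatin immunoprecipitation and sequencing was done on primary macrophages grown from bone marrow of C57BL/6J mice and left unstimulated. The study had 1 group with 2 biological replicates, no other condition and no stated age or sex. Both replicates carry the same donor entry, so their spread may be technical. With no second condition, no test was made and every comparison below is a description of these 2 libraries.

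Replicate 1 had 20031 peaks and replicate 2 had 16376, and the files used here hold no read counts, so depth is unknown. The labelled cell type was checked with marker genes. All 8 macrophage markers were marked in both replicates, among them Cd68 and Mpeg1, and 0 of 20 markers of hepatocytes, adipocytes, fibroblasts, lymphocytes and granulocytes were. Alb, Adipoq, Col1a1, Cd3e and Mpo were among the genes without a peak.

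A gene was called marked when each replicate had a peak overlapping the 1000 bp on either side of any of its annotated transcript starts. By this rule 29 of the 30 genes were marked, against 49.5% of all protein-coding genes. All 18 synthesis enzymes, all 5 SREBP control genes and all 4 fatty acid synthesis genes were among them. Marked promoters are usually rich in CpG dinucleotides, so each gene was also set beside protein-coding genes whose CpG observed/expected ratio lay within 0.05 of its own. The share of such genes that were marked ranged from 8.0% to 83.9% over the 30 genes, and these shares add up to 18.8 genes where 29 were marked.

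The exception was Soat2, an enzyme that esterifies cholesterol in liver and intestine. It had a peak in replicate 1 only, which was true of 4.00% of protein-coding genes. That peak was 742 bp wide with a fold of 6.54, and the nearest peak of replicate 2 lay 13609 bp from its starts. The authors' pooled and replicated lists both held a Soat2 peak, 668 bp wide with a fold of 4.60. Fold here is the authors' own enrichment value for a peak (column 7 of their lists). It can be ranked within a list, and its reference level is not named in the sources used here.

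Width was taken over the domain formed by joining peaks no more than 1000 bp apart. The 29 marked genes had a median mean width of 2307 bp (2664 bp in replicate 1 and 1928 bp in replicate 2), beside 1946.5 bp over all 10869 marked protein-coding genes (2149 and 1741 bp). The middle 50% of the 29 lay between 1825 and 2845 bp. Median top fold was 44.1 in replicate 1 and 17.2 in replicate 2, beside 38.9 and 14.9 over all marked genes. Among marked genes of like CpG ratio, the 29 had a median width percentile of 73.9 and a median fold percentile of 61.9. Width stood above the 50th percentile at 23 genes, and fold did so in both replicates at 19. These are counts and medians of a chosen list, with no test behind them.

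**Figure D1:**
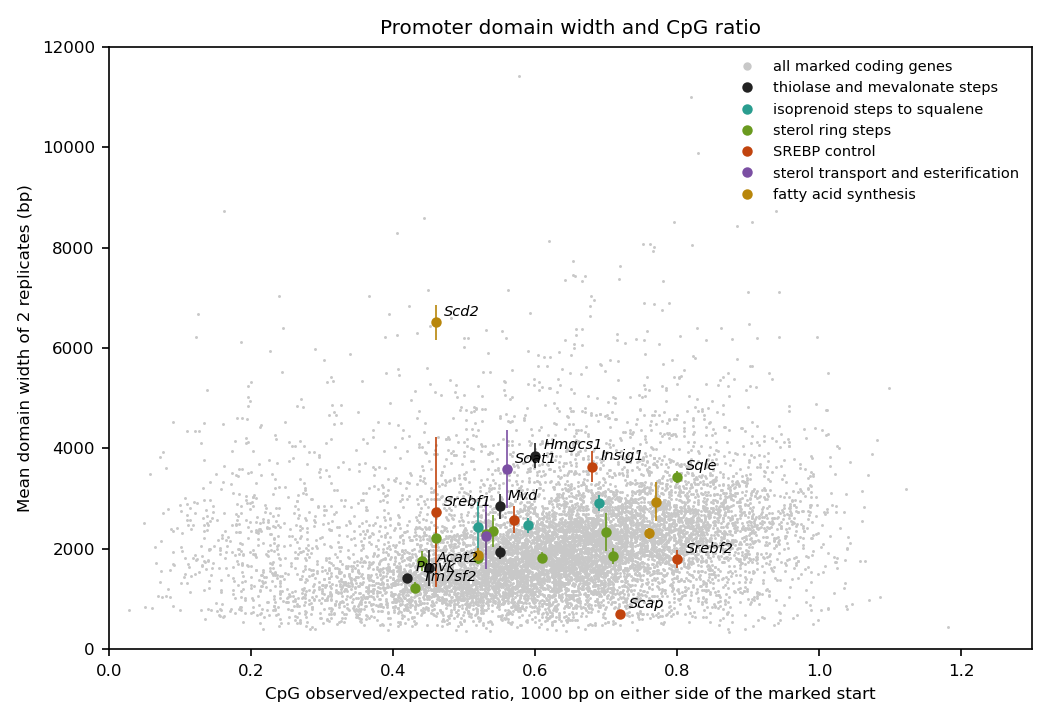
Mean domain width (bp, y axis) against the CpG observed/expected ratio around the marked start (x axis). Grey points are the 10869 marked protein-coding genes, coloured points the 29 marked cholesterol, SREBP and fatty acid genes by role, with bars running from the value of one replicate to that of the other. Scd2 stands highest at 6510 bp and Scap lowest at 690 bp.

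The early mevalonate genes were marked at all 5 loci and spanned a wide range. Hmgcs1 encodes the cytosolic synthase that makes HMG-CoA. Its domain was 4109 bp wide in replicate 1 and 3606 bp in replicate 2, or 3858 ± 356 bp (SD, n = 2), with folds of 55.3 and 20.1. Both widths and folds were among the higher values, and its width percentile was 96.4. Mvd, which decarboxylates mevalonate diphosphate, had domains of 3095 and 2595 bp and folds of 56.0 and 27.0. Its fold percentiles were 90.5 and 98.0, so both width and fold were high there in both replicates. Mvk, the mevalonate kinase, was near the median of all marked genes, at 2052 and 1801 bp with folds of 42.4 and 14.7.

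Acat2, the cytosolic thiolase of the first step, combined a middling width with a low fold. Its domains were 1973 and 1257 bp, and its folds of 20.9 and 6.92 stood at percentiles 15.0 and 12.9. Pmvk, the next kinase after Mvk, was the reverse. Its domains of 1500 and 1352 bp were narrow, at the 35.2 percentile, while its folds of 45.4 and 18.1 stood at percentiles 79.2 and 79.9. Width and fold therefore ordered these enzymes differently.

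The Hmgcs1 and Mvk promoters are shown because Hmgcs1 was the 1 gene with a sterol response element match and Mvk held the most CCAAT boxes. Both come from RefSeq on GRCm38.p6, which is mm10, and run from 250 bases before the annotated start to 50 bases after it. Mvk was chosen after its values were seen. Capitals mark matches on either strand to the sterol response element TCACNCCAC and to CCAAT, the core of the NF-Y site, which reads ATTGG on the other strand. No match of one overlaps a match of the other. Hmgcs1 lies at chr13:119690101-119690400 on the plus strand and Mvk at chr5:114444019-114444318 on the plus strand.
Hmgcs1: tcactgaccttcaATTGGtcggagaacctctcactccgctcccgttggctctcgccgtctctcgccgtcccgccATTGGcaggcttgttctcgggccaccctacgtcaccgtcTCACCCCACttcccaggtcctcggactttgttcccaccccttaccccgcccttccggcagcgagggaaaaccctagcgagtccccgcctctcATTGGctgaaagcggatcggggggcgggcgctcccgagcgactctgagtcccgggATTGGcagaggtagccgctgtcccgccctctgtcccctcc
Mvk: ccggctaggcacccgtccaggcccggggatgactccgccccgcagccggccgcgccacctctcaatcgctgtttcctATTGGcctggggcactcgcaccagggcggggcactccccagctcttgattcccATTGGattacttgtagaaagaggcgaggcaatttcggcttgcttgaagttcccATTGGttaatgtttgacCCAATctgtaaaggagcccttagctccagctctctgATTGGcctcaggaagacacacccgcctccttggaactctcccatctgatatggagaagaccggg

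With the start as base 0, the Hmgcs1 match TCACCCCAC ran from -137 to -129. It lay in the gap between the upstream and downstream peaks in both replicates, inside the joined domain but under no peak. The 4 CCAAT boxes of Hmgcs1 began at -237, -176, -45 and 10, and the outer upstream pair lay under the upstream peak of replicate 1 only. All 5 boxes of Mvk lay upstream of its start, between -173 and -10. The last 3 of them were under a peak in replicate 1, and 0 of the 5 were under a peak in replicate 2.

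RefSeq promoter sequences matched 23 of the 30 genes, and Fdps, Fdft1, Sqle, Stard4, Soat2, Scd1 and Scd2 had none. The sterol response element was found at 1 of the 23, against 1.41% of 17492 protein-coding genes with a sequence. A shorter form, CACNCCAC, was found at Acat2, Hmgcs1 and Insig1, 3 of 23, against 7.26% of genes. Within 500 bases on either side of the gene's 5′ end, the longer form was found at Hmgcs1, Srebf1 and Fasn, 3 of 30, against 3.83%. A match is a run of letters and not a measured site, and a missing match says only that these letters are not in that window.

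CCAAT boxes were found at 20 of the 23 genes (87.0%), against 42.3% of all genes with a sequence and 43.6% of those marked in both replicates. Acat2, Scap and Acaca were the 3 without one. At Pmvk and Insig2 every match lay in the sequence of the unmarked first start, and the sequences of their marked starts held none. Among the 18 genes with only 1 sequence, 16 held a CCAAT box, against 40.2% of marked genes with 1 sequence. The GC box GGGCGG, the core of the Sp1 site, was also found at 20 of 23, against 49.2% of all genes and 70.5% of marked genes. Pmvk, Fasn and Acaca were the 3 without it. Of the 43 CCAAT matches at these genes, 26 lay under a peak of replicate 1, 15 under a peak of replicate 2 and 17 under neither. Over all marked genes 31.8% of 6693 CCAAT matches were outside every peak of both replicates, beside 39.5% here.

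**Figure D2:**
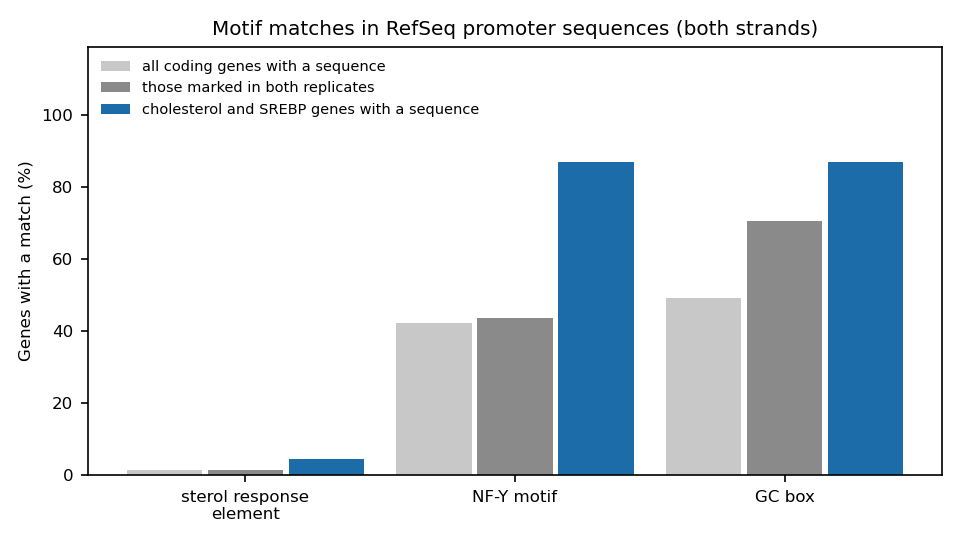
Share of genes (%, y axis, from 0) whose RefSeq promoter sequence holds each motif on either strand (x axis), for the 17492 protein-coding genes with a sequence, the 8578 of them marked in both replicates and the 23 cholesterol, SREBP and fatty acid genes with a sequence. For the NF-Y motif the 23 genes stand at 87.0%, above 42.3% and 43.6%, while the sterol response element was found at 1 gene.

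The isoprenoid genes Idi1, Fdps and Fdft1 were all wider than the median of all marked genes. Idi1, which isomerises isopentenyl diphosphate, had domains of 2619 and 2312 bp and folds of 56.8 and 19.7. Fdps, which makes farnesyl diphosphate, had domains of 2935 and 1928 bp and folds of 44.1 and 16.4. Its replicates differed more than those of Idi1, by 1.52 times against 1.13 times. Fdft1, the squalene synthase that commits the pathway to sterols, had domains of 3077 and 2748 bp and folds of 42.6 and 17.2. Width percentiles of the 3 genes ran from 80.4 to 84.9.

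The sterol ring genes were marked at all 10 loci, with a median width of 2034.5 bp and 5 above the median of all marked genes. Sqle, the squalene epoxidase and a control point of the pathway, had the widest domain, at 3555 and 3316 bp with folds of 48.2 and 21.7. Lss, which closes the ring to lanosterol, had domains of 2664 and 2039 bp. Cyp51, the lanosterol demethylase, had 2724 and 1872 bp. The other early steps were similar or narrower. Msmo1, which oxidises methyl groups of the ring, had domains of 2721 and 1947 bp, and Nsdhl, its partner dehydrogenase, 2415 and 2021 bp. Folds of Lss, Cyp51, Msmo1 and Nsdhl ran from 38.3 to 45.6 in replicate 1 and from 13.3 to 18 in replicate 2, lowest at Nsdhl and highest at Msmo1 in both. Tm7sf2, a sterol reductase, had the narrowest domain of all synthesis enzymes, at 1340 and 1108 bp, with folds of 38.1 and 15.7.

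The late steps were close to one another. Domains of Hsd17b7 (a ketosteroid reductase), Ebp (a sterol isomerase), Sc5d (a desaturase) and Dhcr7 (the final reductase) were between 1913 and 2016 bp wide in replicate 1. In replicate 2 they were between 1559 and 1721 bp. Their mean widths lay within 96 bp of each other, less than the 208 bp or more between the replicates of each. Their folds ran from 37.2 to 48.0 in replicate 1 and from 12.1 to 18.1 in replicate 2, lowest at Hsd17b7 and highest at Sc5d in both. Hsd17b7 and Sc5d fell below the 50th width percentile, at 47.8 and 32.3, as did Pmvk and Tm7sf2 of the earlier steps.

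**Figure D3:**
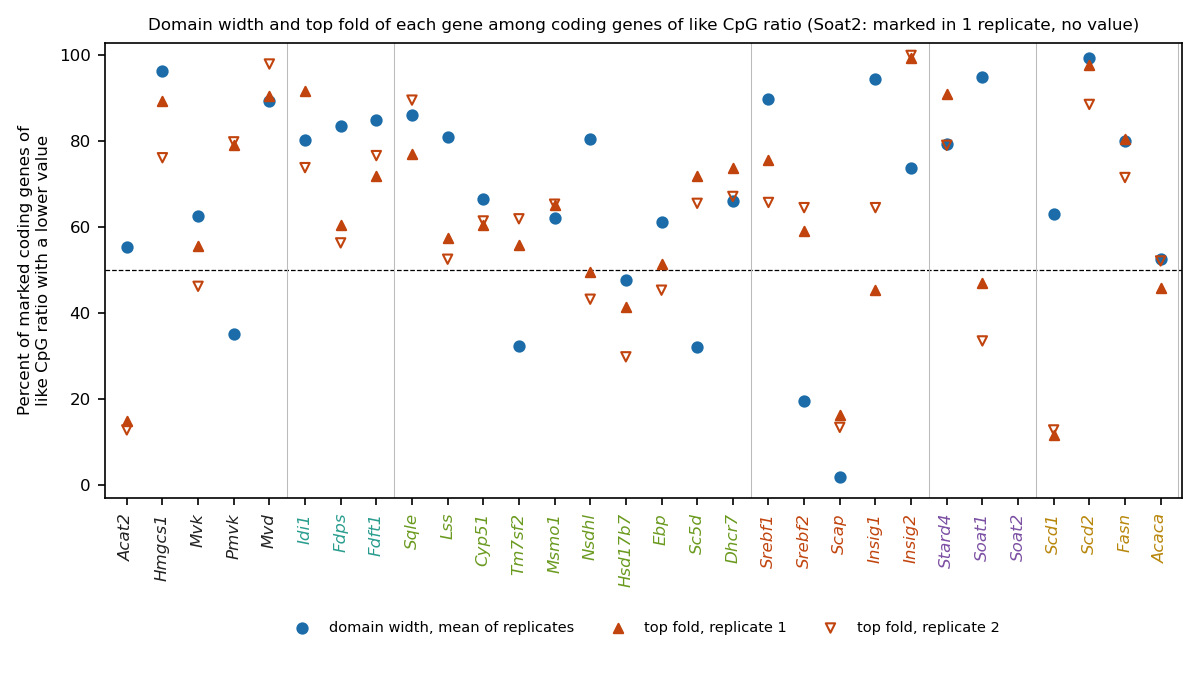
Percentile (y axis) of each gene's domain width (circles, mean of the 2 replicates) and top fold (triangles, each replicate) among marked protein-coding genes of like CpG ratio, in pathway order (x axis, names coloured by role). The dashed line is the 50th percentile. Widths of Hmgcs1, Insig1, Soat1 and Scd2 stand at 94.4 or above and that of Scap at 1.87, while the folds of Acat2, Scap and Scd1 stand at 16.4 or below in both replicates.

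The SREBP control genes held the narrowest promoter of the 29 and 1 of the widest by mean width, that of Insig1. Insig1, which retains Scap and is itself an SREBP target, had domains of 3944 and 3330 bp, or 3637 ± 434 bp (SD, n = 2), at the 94.4 width percentile. Its folds of 39.3 and 18 were at percentiles 45.5 and 64.6, in both replicates below its width percentile. The top peak's summit lay 1168 and 1135 bp downstream of the start. Insig2, its homologue, had domains of 2858 and 2307 bp, and its folds of 62.2 and 26.0 were at percentiles 99.5 and 100. By the CpG ratio around its marked start the fold percentile of Insig2 was 97.5. Srebf2, whose protein mainly drives cholesterol genes, had domains of 1979 and 1616 bp with folds of 42.4 and 17.2. Its CpG ratio of 0.80 is high, and among genes of like ratio its width was at the 19.7 percentile.

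Scap, the sterol sensor and escort, had 1 peak in each replicate, 685 and 695 bp wide with folds of 25.0 and 8.22. It was the 1 gene of the 29 whose domain was not wider in replicate 1, and its mean of 690 bp stood at the 1.87 percentile. The peaks began 9 bp and 47 bp downstream of the nearest annotated start, so that no annotated start lay under a peak. Both RefSeq promoter sequences of Scap were outside the peaks of both replicates. Scap would remain marked with a promoter window of 500 bp.

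Srebf1 has 7 groups of starts more than 1000 bp apart, and 3 of them were marked in both replicates. The first, at the gene's 5′ end on chromosome 11, starts a noncoding transcript and had folds of 33.3 and 11.7. The second, 1977 bp downstream, starts a coding transcript and had the highest folds, 47.5 and 16.7. The third, 12116 bp downstream, starts a coding and a noncoding transcript and had folds of 27.3 and 11.0. The order of the 3 was the same in both replicates. Srebf1 is known to use alternative first exons for the longer and shorter forms of its protein. The remaining 4 groups were unmarked, and their nearest peaks lay 1913 to 8133 bp away.

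Srebf1 was also the 1 gene of the 29 whose widest domains did not overlap between replicates. In replicate 1 the peaks at the first 2 start groups were close enough to join, giving a domain of 4221 bp at chr11:60219179-60223399. In replicate 2 the same peaks were narrower and stayed apart, and the widest domain was the 1242 bp at the third group, chr11:60209173-60210414. The mean of 2732 ± 2106 bp (SD, n = 2) thus averages different places. The authors' pooled list gave 1973 bp.

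At Insig2 and Pmvk the mark was not at the annotated 5′ end. Insig2 has its first starts in a stretch with a CpG ratio of 0.14, and the nearest peaks were 3206 and 3523 bp from them. All peaks of the gene lay over the second group of 8 starts, 4565 bp downstream, where the CpG ratio was 0.59. Pmvk had its first start 4169 and 4239 bp from a peak, with a CpG ratio of 0.24 around it, and its peaks lay over 3 starts beginning 4577 bp downstream. With starts limited to 5′ ends, these 2 genes would not be called marked and 27 of the 30 would be.

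Promoter sequences of Insig2 show the contrast in CpG content between its unmarked and marked starts. They were chosen after the values were seen and are from RefSeq on GRCm38.p6, minus strand, written in the direction of transcription. Capitals mark CG dinucleotides, of which the upstream sequence (chr1:121332540-121332839) has 0 and the downstream sequence (chr1:121327975-121328274) has 17. The upstream sequence overlapped no peak and the downstream one overlapped the peak of both replicates.
Insig2 upstream start: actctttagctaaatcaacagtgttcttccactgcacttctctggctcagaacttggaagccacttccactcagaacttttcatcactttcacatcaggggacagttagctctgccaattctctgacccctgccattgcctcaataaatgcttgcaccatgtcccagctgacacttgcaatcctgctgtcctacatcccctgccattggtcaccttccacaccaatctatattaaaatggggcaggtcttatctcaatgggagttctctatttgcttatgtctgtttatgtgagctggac
Insig2 downstream start: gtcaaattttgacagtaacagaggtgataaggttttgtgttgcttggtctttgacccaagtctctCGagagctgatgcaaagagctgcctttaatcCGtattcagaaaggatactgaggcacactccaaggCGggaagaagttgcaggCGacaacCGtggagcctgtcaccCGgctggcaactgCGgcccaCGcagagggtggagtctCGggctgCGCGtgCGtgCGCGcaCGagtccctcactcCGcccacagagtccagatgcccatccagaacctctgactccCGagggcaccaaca

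Fdft1 differed from both in that peaks reached within 1000 bp of its first start. Its 5′ end has a CpG ratio of 0.13 and lay under no peak. The nearest peaks ran from 758 to 1507 bp downstream of it in replicate 1 and from 844 to 1502 bp in replicate 2. Their folds were 20.7 and 5.61. They lay closer to the second start group, 1781 bp downstream, and were joined to its domain in both replicates. That group, with a CpG ratio of 0.68, had folds of 42.6 and 17.2. With Soat2, these are the 4 genes with a CpG ratio under 0.3 at the 5′ end. Among the 4, 3 were marked, where shares of like genes add up to 0.599. That ratio describes the 5′ end and not the marked start, and it places Insig2, Pmvk and Fdft1 among genes unlike their marked promoters. With the ratio taken around the marked start instead, a choice made after seeing the data, median percentiles of the 29 were 79.5 for width and 62.2 for fold.

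Across the 22 marked genes with at least 2 groups of starts, 31 of 68 groups were marked in both replicates, against 35.7% of 25363 groups over all such marked genes. The other 37 had no peak within 1000 bp in either replicate. Neighbouring groups could count through the same peak, so the marked groups are not all separate sites. The first and second groups of Idi1, Msmo1, Insig1 and Scd1 had the same top folds. Acaca, whose product makes malonyl-CoA, was marked at its 5′ end with folds of 33.8 and 12.4 and 50159 bp downstream with folds of 39.3 and 16.1. The peaks with folds of 33.8 and 12.4 ran from -921 to -240 bp and from -815 to -287 bp, upstream of the start. Those over or just after the start had folds of only 16.4 and 6.79. The remaining 3 groups of Acaca were unmarked, and the 1 RefSeq promoter sequence of the gene belongs to an unmarked group. Dhcr7 was marked at its 5′ end with folds of 42.3 and 14.2 and 5752 bp downstream with folds of 46.5 and 16.8. The peaks with folds of 42.3 and 14.2 also lay upstream of the start, from -1227 to -188 bp and from -1063 to -242 bp. Over the 5′ start itself, replicate 1 had a peak with a fold of only 9.90 and replicate 2 had no peak. At both Acaca and Dhcr7 the internal group had the higher fold in each replicate.

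**Figure D4:**
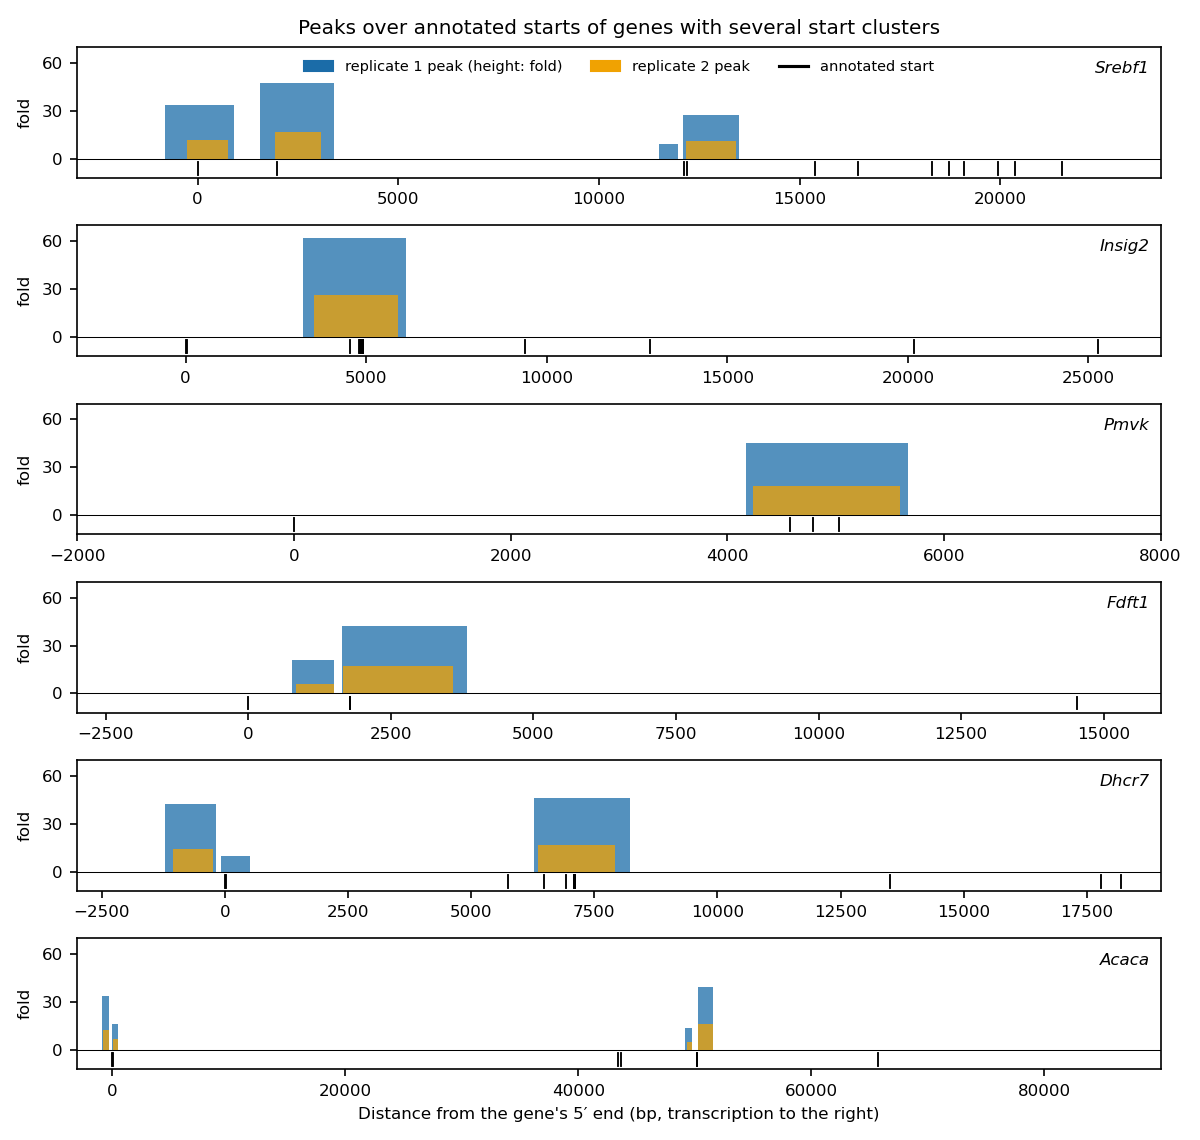
Peaks (bars, height is the authors' fold, y axis) and annotated starts (ticks under the axis) along 6 genes with several start groups, by distance from the gene's 5′ end (bp, x axis, transcription to the right). At Insig2 and Pmvk the first starts have no peak, at Srebf1 there are 3 marked groups, and at Acaca the first and the 50159 bp groups are marked. A far downstream unmarked start of Acaca lies beyond the plotted range.

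Some peaks could not be assigned to 1 gene, because a start of another protein-coding gene lay in the same window. This held for 6 of the 29 genes, against 25.1% of all marked genes. Mvk shares its window with Mmab, a cobalamin adenosyltransferase gene read from the opposite strand, whose start is 209 bp away. Nsdhl and Cetn2 start 146 bp apart, Acaca and Tada2a 72 bp apart, and Dhcr7 and Nadsyn1 296 bp apart, all on opposite strands. Fdps has Gm43738 216 bp away and Tm7sf2 has Vps51 698 bp away, both on the same strand. At Acaca and Dhcr7 only the group at the 5′ end is shared, so the internal groups with the higher folds are their own.

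Stard4 and Soat1, of sterol transport and esterification, were both wide in replicate 1 and much narrower in replicate 2. Soat1, the enzyme that stores cholesterol as ester in macrophages, had domains of 4374 and 2810 bp and folds of 39.0 and 12.4. Replicate 1 joined 3 peaks there, the outer ones with folds of 3.74 and 3.50, while replicate 2 had only the central peak. The central peak alone ran from 100 bp upstream to 2849 bp downstream of the start in replicate 1 and from 41 to 2768 bp in replicate 2. Its width therefore differed little between the replicates. Stard4, a sterol carrier protein, had domains of 2935 and 1587 bp and folds of 56.4 and 20.8, at percentiles 91.1 and 79.1.

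The fatty acid genes included the widest domain of all 30. Scd2, a stearoyl-CoA desaturase, had domains of 6862 and 6158 bp, or 6510 ± 498 bp (SD, n = 2), with folds of 59.6 and 22.0. By mean width it was the only one of the 29 at 4000 bp or more, which 4.69% of marked genes reached. Hmgcs1, with a mean of 3858 bp, was the next below. In replicate 1 alone, the domains of Hmgcs1 (4109 bp), Srebf1 (4221 bp) and Soat1 (4374 bp) also passed 4000 bp. In each replicate the Scd2 domain was 1 unbroken peak, reaching 5777 and 5035 bp into the gene and 1084 and 1122 bp upstream of the start.

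Scd1, a desaturase of the same family, also on chromosome 19, differed from it in both measures. Its domains were 2020 and 1724 bp, and its folds of 20.0 and 7.70 stood at percentiles 11.8 and 12.9. For Scd2 those percentiles were 97.8 and 88.6. Fasn, the fatty acid synthase, had domains of 3337 and 2544 bp with folds of 50.1 and 18.7. Acaca had 2416 and 2198 bp.

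**Figure D5:**
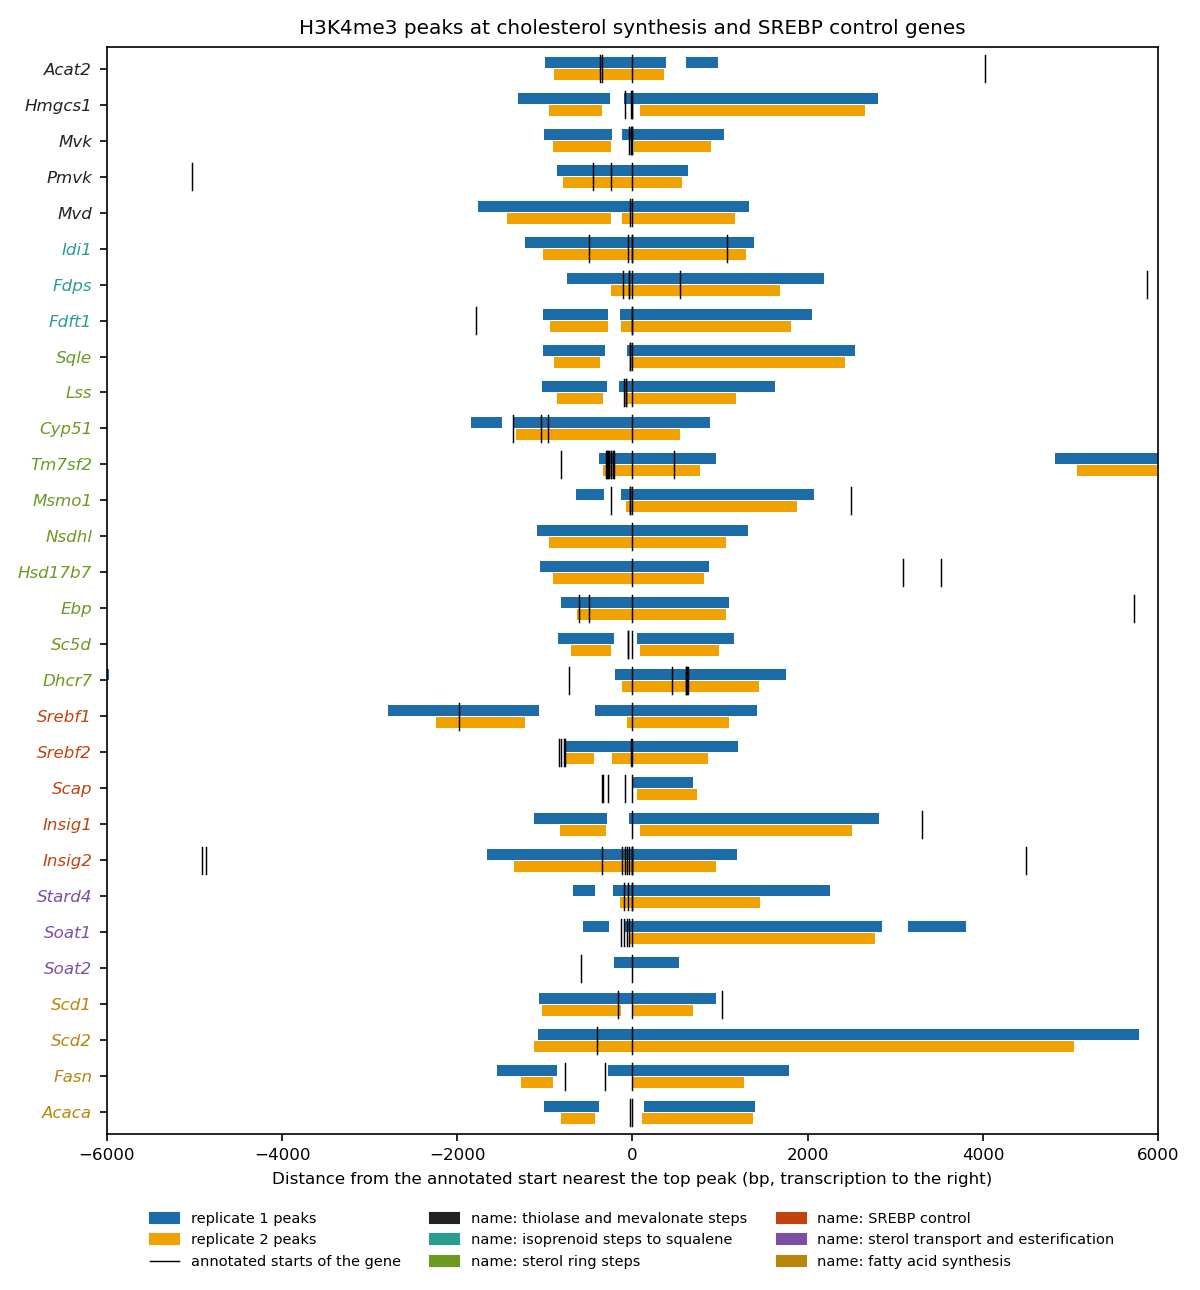
Peaks of replicate 1 (blue) and replicate 2 (orange) along each of the 30 genes (y axis), by distance from the annotated start nearest the top peak (bp, x axis, transcription to the right), with annotated starts as black ticks. Scd2 carries 1 peak reaching 5777 and 5035 bp downstream, Scap peaks begin 9 and 47 bp downstream of the start, and Soat2 has a peak in replicate 1 only.

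Most domains extended farther into the gene than upstream of it, as for marked genes at large. At the 28 genes with overlapping domains, the median reach in replicate 1 was 1016 bp upstream and 1361 bp downstream, and in replicate 2 876.5 and 1172 bp. Downstream reach was the longer in both replicates at 20 of the 28, against 65.6% of all such genes. Domains made of 2 or more peaks in both replicates were found at 9 of the 29, against 29.0%. An annotated start lay between the joined peaks in both replicates at Sc5d, Fasn and Acaca, 3 of 29, against 17.8%.

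The replicates ordered the genes alike in fold and less so in width. Spearman's rho between replicates over the 29 genes was 0.914 for fold and 0.751 for width, beside 0.960 and 0.866 over all marked genes. Genes in 1 pair of libraries are not independent, and these values are descriptions. Replicate 1 gave the wider domain at 28 of the 29, against 98.7% of all marked genes. Its fold was higher at all 29, with a median ratio of 2.69 (2.07 to 3.15), beside a median of 2.56 over all marked genes. Replicate 1 also had more peaks, covering 25.5 Mb against 17.8 Mb, and the part of this in the widths was not tested.

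Beyond the 30, another 30 genes that serve the same pathways were all marked in both replicates, where shares of genes of like CpG ratio add up to 21.2. They include other enzymes, the proteases that cut SREBPs, endoplasmic reticulum regulators, and the NF-Y and Sp1 factors. Their median width was 2110.8 bp, and their median percentiles among genes of like CpG ratio were 42.4 for width and 63.7 for fold. The 3 widest were Fbxw7, a ubiquitin ligase subunit that marks nuclear SREBPs for decay (4076 and 3560 bp), Nfya, a subunit of NF-Y (3941 and 3423 bp), and Ggps1, which makes geranylgeranyl diphosphate (3567 and 3371 bp). The windows of Nfya and Ggps1 each hold a start of another protein-coding gene, so peaks there could not be assigned to 1 gene. Median percentiles at the 29 genes above were 73.9 for width and 61.9 for fold, and the difference between the lists was not tested.

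Of 9 relatives of the 30 genes that act in other organelles, tissues or pathways, 6 were marked, where shares of like genes add up to 3.51. The 6 marked relatives had a median width of 1008.2 bp, from 384 to 2143.5 bp, and 2 of them stood above the 50th width percentile. The relatives without a peak in either replicate were Idi2, a relative of Idi1 with the nearest peaks 41882 and 42041 bp away, and the desaturase genes Scd3 and Scd4. Acacb, the mitochondrial relative of Acaca, was marked but narrow, at 812 and 539 bp. Acat3, next to Acat2, had domains of 410 and 358 bp against 1973 and 1257 bp at Acat2. Acat3 and Acacb were the narrowest of the 6 marked relatives.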

How the data were processed

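The authors called peaks on the alignments of each replicate and on both together, and made a replicated list from these, per the provenance texts among the deposited files. The labels give 10 ng of starting DNA and the mm10 assembly. For the aligner and the peak caller, names and thresholds were not given in the sources used here. Each deposited peak carries the authors' fold (a ratio) and −log10 p. No read counts were used, and how depth bears on the peaks, widths and folds was not tested.

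Starts came from GENCODE M21. Overlaps of at least 1 bp counted, starts over 1000 bp apart formed separate groups, and CpG ratios covered 1000 bp around the gene's 5′ end. Overlaps, widths and motif searches were first tested on simulated data. Python 3.11.15, numpy 2.4.6 and samtools 1.23.1 were used.

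The genes, lists and comparisons were chosen with earlier results of these data known. The text names all 30 genes, genes sharing their windows and, from the other lists, the 3 widest pathway genes and every unmarked relative. Acacb, Acat3 and the named cell type markers were chosen after their values were seen. One symbol of the relatives list had no match and another gene of it is not reported here. Alternatives were other windows, joining distances, CpG tolerances, peak lists and motif windows, and leaving out each replicate.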

Additional observations from a re-analysis of the deposited data

How the results depend on the processing

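The count of marked genes stayed between 27 and 30 under every alternative run. The 27 came from counting only 5′ ends, which lost Insig2 and Pmvk, and the 30, which gained Soat2, from the pooled list, the replicated list and leaving out replicate 2. Median width ran from 1825 bp without joining to 2641.5 bp without replicate 2. The median width percentile of 73.9 was 66.1 with only the 15000 peaks of highest −log10 p, and between 66.1 and 76.5 leaving out each replicate. The median fold percentile of 61.9 was 58.8 from 5′ ends alone, 64.1 in the pooled list, 62.9 in the replicated list, 68.8 without genes of shared windows, and between 63.2 and 64.6 leaving out each replicate. The count of 1 gene with a sterol response element was 3 with the shorter motif and 3 within 500 bases of the 5′ end. The widths, and the width percentile of 76.5, moved by less than 1 SD between replicates. The width percentile of 66.1 and these fold percentiles moved by more, and the cause was not tested. The other pathway genes marked numbered 26 to 30 and the relatives 5 to 6. Of 317 widths of single genes under alternatives, 21 moved by more than 1 SD between replicates. No paired analysis was possible because there is 1 group. Depth is unknown, and with 2 replicates each SD is itself imprecise.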
